A study of Mus musculus with 2 samples.

Results

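The E2F transcription factors and the pocket proteins that bind them were examined in mouse mammary basal cells grown in 3D culture with or without TNF-α. The group held 10 genes of the 49492 in the count table, chosen by name: E2f1 to E2f8, and the pocket protein genes Rb1 and Rbl1. All 10 had at least 10 reads summed over both libraries, the minimum for a gene to be compared, which 20771 genes met. Rbl2, which encodes the remaining pocket protein p130, was followed beside them.

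RNA was sequenced in bulk from colonies/organoids raised from wild-type basal cells, which had been FACS sorted from the mammary glands of adult female mice. Both cultures were grown in matrix gel for 10 days in medium with EGF and insulin, transferrin and selenium, so the control also received a mitogen. The TNF-α culture additionally received recombinant mouse TNF-α, an inflammatory cytokine made by macrophages, at 10 ng/mL. Each condition had a single library, so none of the differences could be checked against replicates and p-values are not given.

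E2F proteins bind DNA in the promoters of genes for DNA replication and cell division. E2F1, E2F2 and E2F3 activate these genes, E2F4 and E2F5 act mostly as repressors bound to pocket proteins, E2F6 represses without a pocket protein, and E2F7 and E2F8 are atypical repressors that bind DNA without a DP partner. In resting cells the pocket proteins RB, p107 and p130, encoded by Rb1, Rbl1 and Rbl2, hold E2Fs in check, and G1 cyclins with their kinases (CDKs) phosphorylate them to release E2F as cells enter the cycle. Several genes of the family are themselves known to be transcribed under E2F control, and the part of this in the values below was not tested. The study asked how TNF-α acts on the growth of mammary basal cells.

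The promoters of the members that were higher with TNF-α, where RefSeq gives them, and that of E2f3, whose level hardly differed, show which E2F-type letters each carries. RefSeq promoters on GRCm38.p6 were found for 8 of the 11 genes looked up (the 10 members and Rbl2), and for 5 of these, E2f6, E2f7, E2f8, Rbl1 and Rbl2, the start was the first base of the gene in the count table. The outer of 2 RefSeq starts of E2f3, used here, lies 395 bases before the gene in the count table, and the only entry for E2f1 starts 466 bases inside it, so that one is not shown. Each line runs 5′ to 3′ on the gene's strand and ends at the last base before the start. Capitals mark an E2F site (TTTCCCGC, TTTGGCGC, TTTCGCGC or TTTGCCGC), a CHR element, which is read by the MuvB complex (TTTGAA or TTCGAA), or a CCAAT box (CCAAT), on either strand, and marked letters of different kinds do not overlap.
E2f7 (chr10:110745229-110745438, + strand): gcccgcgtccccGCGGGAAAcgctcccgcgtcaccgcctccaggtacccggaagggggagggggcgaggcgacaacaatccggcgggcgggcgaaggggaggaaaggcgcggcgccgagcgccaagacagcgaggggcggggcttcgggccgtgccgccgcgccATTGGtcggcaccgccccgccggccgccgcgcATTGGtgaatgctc
E2f8 (chr7:48881597-48881726, - strand): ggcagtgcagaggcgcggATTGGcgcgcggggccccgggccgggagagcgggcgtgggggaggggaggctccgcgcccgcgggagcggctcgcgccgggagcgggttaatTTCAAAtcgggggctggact
Rbl1 (chr2:157204535-157204594, - strand): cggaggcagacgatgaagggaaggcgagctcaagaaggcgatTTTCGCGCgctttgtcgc
E2f3 (chr13:29986064-29986213, - strand): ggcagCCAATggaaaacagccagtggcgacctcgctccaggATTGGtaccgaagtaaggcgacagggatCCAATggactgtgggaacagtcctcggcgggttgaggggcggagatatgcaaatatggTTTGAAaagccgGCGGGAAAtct

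An E2F site stood from 198 to 191 bases before the start of E2f7, from 18 to 11 bases before that of Rbl1 and from 11 to 4 bases before that of E2f3. In the 250 bases before the start, such a site was present in 1.86% of the 32851 RefSeq promoters. The 250 bases before E2f8 held none of the 4 spellings, but had a CHR element from 20 to 15 bases and a CCAAT box from 112 to 108 bases before the start. A CHR element was present in 17.1% and a CCAAT box in 33.8% of all promoters of this length. E2f3 carries the same 8 letters as E2f7, so these letters were present both before a member that was higher with TNF-α and before one that hardly differed. The same holds for the other letters of E2f8. E2f3 had CCAAT boxes and a CHR element from 23 to 18 bases before its start, and Rbl2 had a CHR element from 201 to 196 bases. No E2F site was found in the 250 bases before the RefSeq starts of E2f1, which was higher with TNF-α, or of E2f2, E2f6 and Rbl2, which were not. Whether any of these letters go with the differences was not tested.

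Both libraries were deeply sequenced, with 44462275 reads counted on genes in the control and 53487087 with TNF-α. After scaling by TMM, a method that matches the bulk of genes between libraries, the effective depth with TNF-α was 1.20 times that of the control. Among all 20771 genes compared, the median log2 ratio (TNF-α to control) stood at 0.0038, and among the 13609 genes with at least 200 reads the 5th percentile was -0.74 and the 95th 0.88. Basal markers, 7 in all, summed to 11649 reads scaled to library depth (CPM) in the control and 10698 CPM with TNF-α. Of these 3 lay above a log2 ratio of 0 and 4 below, where 50.6% of all genes lay above 0. Their log2 ratios were 0.16 for Krt5, -0.08 for Krt14, -0.20 for Acta2 and -0.52 for Myh11. The lowest was -1.19 for the oxytocin receptor gene Oxtr, the 1 basal marker past 2-fold lower, where 6.62% of all genes were. The 11 luminal markers summed to 4456 and 3564 CPM, and 8 of them were more than 1.5-fold lower with TNF-α, where 13.7% of all genes were, down to a log2 ratio of -1.54 for the progesterone receptor gene Pgr. Leukocyte markers summed to 8.23 and 6.54 CPM, with Cd3e at 0 in both libraries, fibroblast markers to 517 and 495 CPM, and endothelial markers to 6.57 and 6.24 CPM. By FACS of its cultures, the study found mostly luminal cells in control colonies, and a larger proportion of basal cells with TNF-α. In the libraries here the summed basal markers and the summed luminal markers were both lower with TNF-α. How far the FACS proportions hold for the cultures sequenced here was not tested. In such bulk samples fewer cells of a type and less RNA per cell cannot be told apart, and the part of the lower luminal markers in the results that follow was not tested.

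Set against the control library, the TNF-α library held more transcript of E2f1, E2f7, E2f8 and Rbl1, less of Rb1, and similar amounts of E2f2, E2f3, E2f4, E2f5 and E2f6. E2f1 alone passed 2-fold, at 2.39-fold higher. E2f7 was 1.65-fold, E2f8 1.46-fold and Rbl1 1.37-fold higher, and Rb1 was 1.504-fold higher in the control. The levels behind these ratios are given per kilobase of summed exon length (RPKM, reads scaled to exon length and to the depth of the library), so that genes can be set side by side.

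**Figure D1:**
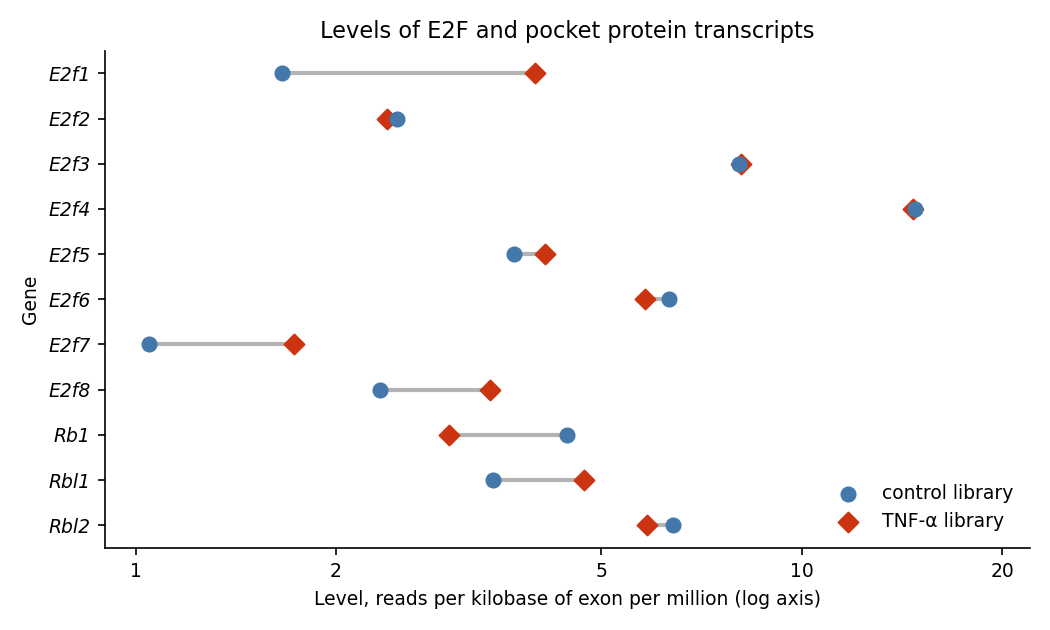
Level of each gene in RPKM (log axis) in the control library (circles) and the TNF-α library (diamonds), 1 library each. E2f4 is highest and E2f7 lowest in both libraries, and the widest gap between libraries is that of E2f1, from 1.66 to 3.98 RPKM.

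E2f4 had the highest level of the family, 14.8 RPKM in the control and 14.7 RPKM with TNF-α, followed by E2f3 at 8.05 and 8.12 RPKM. E2f7 had the lowest, at 1.05 and 1.73 RPKM. From the top, the control order was E2f4, E2f3, Rbl2, E2f6, Rb1, E2f5, Rbl1, E2f2, E2f8, E2f1 and E2f7. Of these neighbours, Rbl2 and E2f6, E2f5 and Rbl1, and E2f2 and E2f8 had 95% Poisson intervals that overlapped, and all other neighbours were separated beyond counting error. With TNF-α the order was E2f4, E2f3, Rbl2, E2f6, Rbl1, E2f5, E2f1, E2f8, Rb1, E2f2 and E2f7, and the intervals of Rbl2 and E2f6, Rbl1 and E2f5, and E2f5 and E2f1 overlapped. E2f1 thus moved from position 10 of 11 to 7, Rbl1 from 7 to 5, and Rb1 from 5 to 9. These orders depend on the summed exon length of each gene, which counts exons of all its isoforms.

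Among the activators, E2f1 differed between the libraries while E2f2 and E2f3 hardly did. E2f1 (GENCODE identifier ENSMUSG00000027490.17, chromosome 2 of GRCm38, 154559407 to 154569892, minus strand) is an activator tied to entry into S phase. At high activity it is also tied to cell death. It had 233 reads in the control and 670 with TNF-α, a log2 ratio of 1.26 with a 95% Clopper-Pearson interval from 1.05 to 1.49. This interval and the later ones cover counting error only and hold nothing on how cultures vary. They treat each read as its own molecule, although some reads may be PCR copies. E2f1 ranked 1262 from the top of the 20771 genes compared. E2f2 (ENSMUSG00000018983.9, chromosome 4, 136172394 to 136196057, plus strand) had 537 and 622 reads, a log2 ratio of -0.05 (interval -0.22 to 0.12). E2f3 (ENSMUSG00000016477.18, chromosome 13, 29906575 to 29985668, minus strand) had 1720 and 2076 reads, a log2 ratio of 0.01 (interval -0.08 to 0.10). E2f3 makes a long and a short isoform from separate promoters, and reads summed over the gene cannot tell them apart.

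Within each library, reads of E2f1 can be set against those of its relatives without any scaling between libraries. There were 0.434 reads of E2f1 for each read of E2f2 in the control and 1.08 with TNF-α, a change of 2.48 times (exact 95% interval 2.05 to 3.01). Against E2f3 the same ratio went from 0.135 to 0.323, a change of 2.38 times (2.02 to 2.81). Both pairs were chosen after the values were seen.

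The repressors that act with pocket proteins showed no difference beyond counting error. E2f4 (ENSMUSG00000014859.9, chromosome 8, 105297663 to 105305370, plus strand), the main E2F of resting cells, had 1615 reads in the control and 1920 with TNF-α, a log2 ratio of -0.01 (interval -0.11 to 0.09). E2f5 (ENSMUSG00000027552.14, chromosome 3, 14578641 to 14606309, plus strand) had 294 and 392 reads, a log2 ratio of 0.15 (interval -0.07 to 0.38). E2f6 (ENSMUSG00000057469.8, chromosome 12, 16810965 to 16826743, plus strand), which represses together with polycomb proteins, had 681 and 751 reads, a log2 ratio of -0.12 (interval -0.27 to 0.03). E2f5 had the fewest reads of these and so the widest interval, reaching 0.38.

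Both atypical repressors were higher with TNF-α. E2f7 (ENSMUSG00000020185.16, chromosome 10, 110745439 to 110787384, plus strand) had 421 reads in the control and 832 with TNF-α, a log2 ratio of 0.72 (interval 0.55 to 0.90). E2f8 (ENSMUSG00000046179.17, chromosome 7, 48866429 to 48881596, minus strand) had 564 and 989 reads, a log2 ratio of 0.55 (interval 0.40 to 0.70). The pair, which can dimerise with each other and repress E2F1 targets late in S phase, was then compared within each library. There were 0.746 reads of E2f7 for each read of E2f8 in the control and 0.841 with TNF-α, a change of 1.13 times whose interval, 0.961 to 1.32, held 1 (a pair chosen after the values were seen). E2f8 shares 11.2% of its exon bases with Gm2788 on the opposite strand, which had 157 and 225 reads, and whether counting used strand is not given in the sources used here.

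The pocket protein genes differed in opposite directions. Rbl1 (ENSMUSG00000027641.13, chromosome 2, 157145893 to 157204534, minus strand) encodes p107, the pocket protein of cycling cells. It had 920 reads in the control and 1505 with TNF-α, a log2 ratio of 0.45 (interval 0.33 to 0.57). Rb1 (ENSMUSG00000022105.6, chromosome 14, 73183673 to 73325822, minus strand), the retinoblastoma tumour suppressor gene, had 1192 and 948 reads, a log2 ratio of -0.59 (interval -0.71 to -0.47). Rbl2 (ENSMUSG00000031666.15, chromosome 8, 91070057 to 91123844, plus strand) encodes p130, the pocket protein of quiescent cells, and had 2161 and 2361 reads, a log2 ratio of -0.13 (interval -0.22 to -0.05). The level of Rb1 was therefore above that of Rbl1 in the control, 4.45 against 3.44 RPKM, and below it with TNF-α, 2.95 against 4.71 RPKM.

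Rb1 was at the edge of the 1.5-fold threshold, and other genes share some of its exon bases. Its exons share 408 bases with Lpar6 and 488 bases with Rcbtb2, both on the opposite strand, which is 6.78% and 8.11% of its exon bases. Lpar6 had 94 reads in the control and 215 with TNF-α, and Rcbtb2 558 and 595. Their part in the lower count of Rb1 was not tested. Rbl2 shares 9.17% of its exon bases with Aktip and 11.8% with Gm45464, also on the opposite strand.

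**Figure D2:**
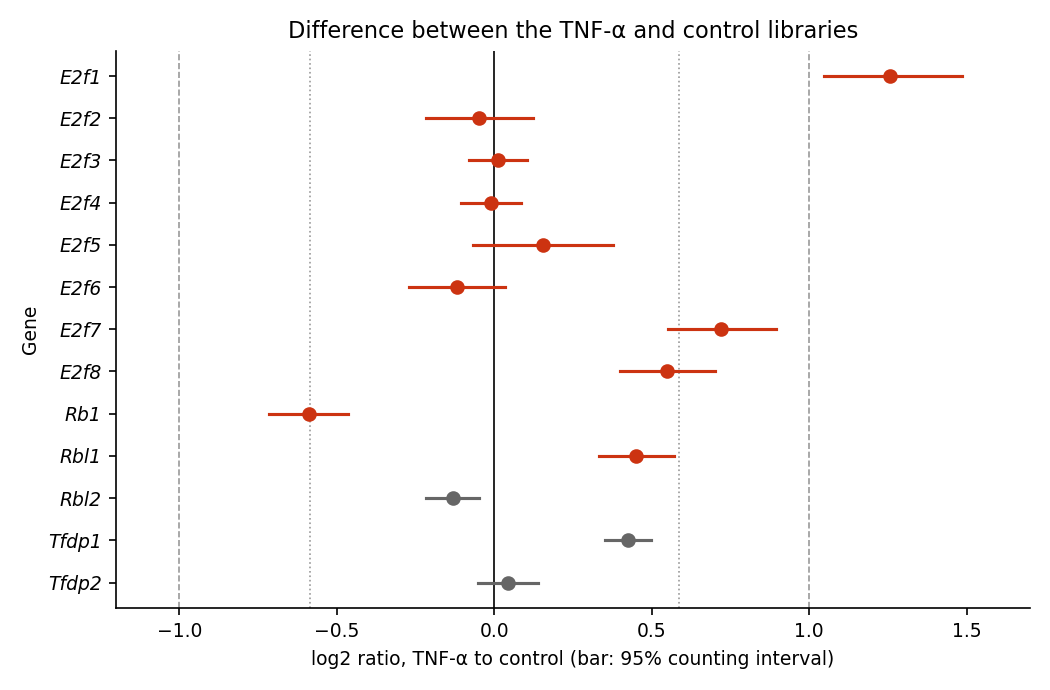
log2 ratio of the TNF-α to the control library for the 10 members (red) and for Rbl2 and the DP genes (grey), with bars for the 95% counting interval, dotted lines at 1.5-fold and dashed lines at 2-fold. E2f1 lies past 2-fold at 1.26, Rb1 is the lowest at -0.59, and the bars of E2f2 to E2f6 cross 0.

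The members were then set against all genes compared. The counting interval lay above 0 for 4 of the 10 members and below 0 for 1, and among all genes compared it did so for 28.9% and 27.8%. Past 1.5-fold, 2 members were higher (E2f1 and E2f7), where 15.5% of all genes were, and 1 was lower (Rb1), where 13.7% were. Past 2-fold there was 1 member higher, where 8.56% of all genes were, and 0 lower, where 6.62% were. Of the 10 members 6 lay above a log2 ratio of 0, against 50.6% of all genes, and the median of the members was 0.08. By these counts the members as a group were close to the background of all genes compared. Which of them were higher or lower rests on 1 library per condition and was not tested. Among the 13609 genes with at least 200 reads, a range that holds all 10 members, 9.13% were past 1.5-fold higher and 7.48% past 1.5-fold lower, 4.01% past 2-fold higher and 2.87% past 2-fold lower. In that range 50% lay above a log2 ratio of 0, and the interval lay above 0 for 34.3% and below 0 for 33.9%.

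**Figure D3:**
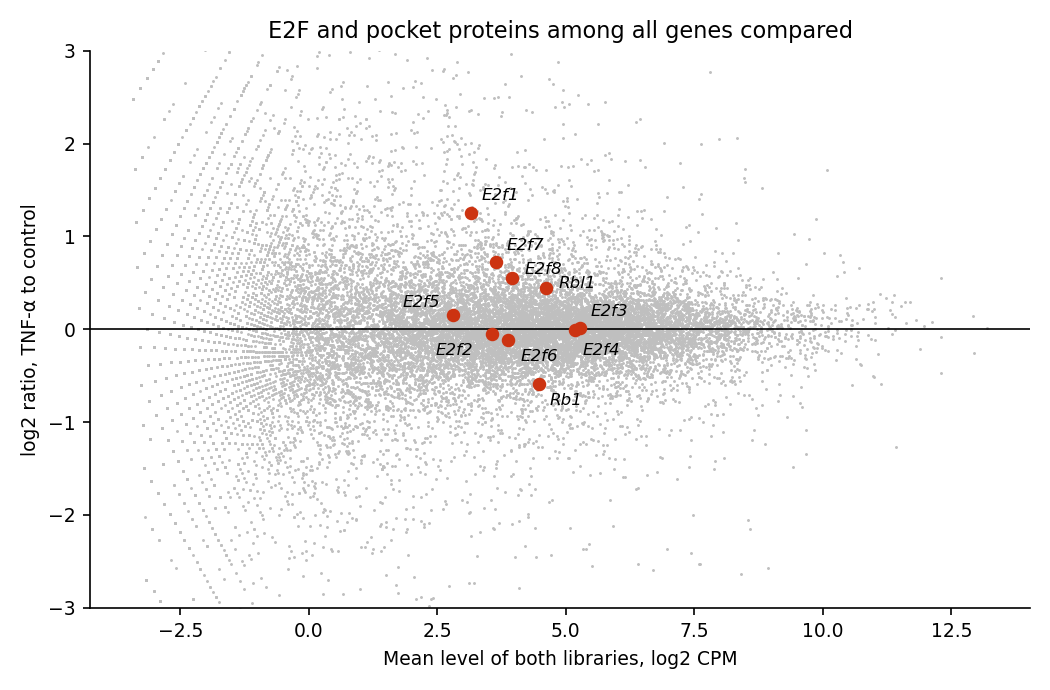
log2 ratio of TNF-α to control against the mean level of both libraries (log2 CPM) for the 20771 genes compared (grey) and the 10 members (red); 268 genes lie beyond the axis limit of 3. E2f1 is the highest member at 1.26, with many other genes above it, and E2f3 and E2f4 sit at 0.01 and -0.01.

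The make-up of each family was then compared as shares of the summed level per length within a library. The 8 E2F genes together had 40.3 RPKM in the control and 44.2 RPKM with TNF-α. E2f4 and E2f5 made up 45.8% of this sum in the control and 42.5% with TNF-α, and E2f6 15.6% and 13.1%. The atypical E2f7 and E2f8 went from 8.36% to 11.6%. The activators went from 30.2% to 32.7%, and within them E2f1 went from 4.11% to 9.001% while E2f3 went from 19.96% to 18.3%. As plain reads, without dividing by length, the share of the activators went from 41.1% (exact 95% interval 39.8 to 42.3) to 40.8% (39.8 to 41.9), so the direction for this group depends on the unit. The share of E2f7 and E2f8 was higher with TNF-α in both units, at 16.2% (15.3 to 17.2) of reads in the control and 22.1% (21.2 to 23.0) with TNF-α.

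The 3 pocket protein genes summed to 14.3 RPKM in the control and 13.5 RPKM with TNF-α. Rbl1 went from 24.1% to 34.8% of this sum, Rb1 from 31.1% to 21.9% and Rbl2 from 44.8% to 43.3%. Rbl2 was thus the most abundant pocket protein transcript in both libraries, while Rb1 was above Rbl1 in the control and below it with TNF-α.

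**Figure D4:**
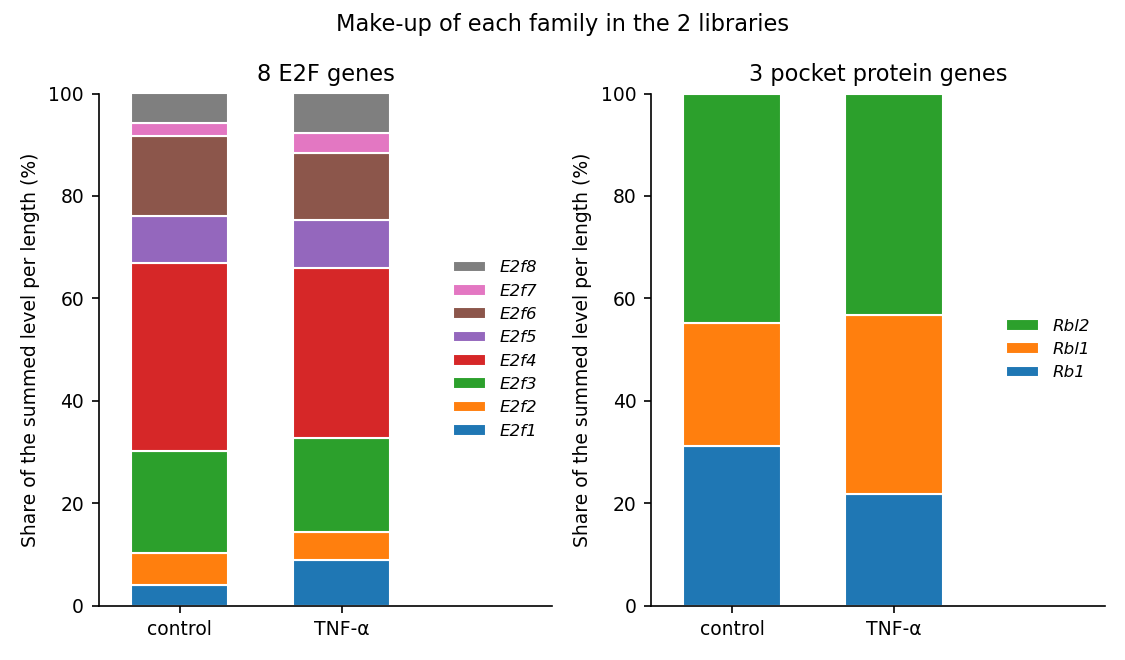
Share of each gene in the summed level per length (%) of the 8 E2F genes (left) and of the 3 pocket protein genes (right) in the control and TNF-α libraries. E2f4 takes the largest share of the E2F sum in both, E2f1 goes from 4.11% to 9.001%, and Rbl1 goes from 24.1% to 34.8% as Rb1 goes from 31.1% to 21.9%.

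Ratios of reads between roles need no scaling between libraries. There were 0.516 reads of E2f7 and E2f8 for each read of E2f4 and E2f5 in the control and 0.788 with TNF-α, a change of 1.53 times (exact 95% interval 1.38 to 1.69). Activators to atypical repressors went from 2.53 to 1.85, a change of 0.732 times (0.666 to 0.804). Activators to E2f4 and E2f5 went from 1.30 to 1.46, a change of 1.12 times (1.03 to 1.21). This last interval reached 0.996 when reads were divided by 2, which is the closer count if both ends of a pair were counted. Rbl1 to Rb1 went from 0.772 to 1.59, a change of 2.06 times (1.82 to 2.32), and Rbl1 to Rbl2 from 0.426 to 0.637, a change of 1.497 times (1.35 to 1.66).

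Genes for the partners of these proteins were compared next. DP proteins pair with E2F1 to E2F6 to bind DNA. Tfdp1 had 2557 reads in the control and 4109 with TNF-α, a log2 ratio of 0.42 (interval 0.35 to 0.50), and Tfdp2 had 1620 and 1999 reads, a log2 ratio of 0.04 (interval -0.05 to 0.14). Among the 7 genes for the MuvB core, B-Myb and FoxM1, which form the DREAM complex with p107 or p130 and E2F4 or later activate mitotic genes, 7 lay above 0 and 2 passed 1.5-fold higher, where 50.6% and 15.5% of all genes did, with a median of 0.41. The highest was Mybl2, which encodes B-Myb, with 503 and 984 reads and a log2 ratio of 0.71, and the lowest was Lin54, the subunit that reads CHR elements, at 0.12.

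Upstream of the pocket proteins, 7 of 8 genes for G1 cyclins and CDKs lay above 0, 4 passed 1.5-fold and 2 passed 2-fold higher, with a median of 0.49. Among all genes 50.6% lay above 0, 15.5% passed 1.5-fold higher and 8.56% passed 2-fold higher. Cdk6, one of the kinases that pair with D cyclins, was highest, with 426 reads in the control and 1133 with TNF-α and a log2 ratio of 1.15 (interval 0.99 to 1.32). Ccnd2, which encodes cyclin D2, had 1167 and 2908 reads, a log2 ratio of 1.06 (interval 0.96 to 1.16). Ccnd3, for cyclin D3, was the lowest at -0.12. These kinase and cyclin genes belong to the machinery that phosphorylates RB, and their transcript levels say nothing of RB phosphorylation.

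The 7 CDK inhibitor genes had a median of 0.34, with 4 above 0 and 3 below, where 50.6% of all genes lay above 0. Of these inhibitors 2 passed 1.5-fold higher and 0 lower, where 15.5% and 13.7% of all genes did. Cdkn2a, which encodes both the CDK4/6 inhibitor p16Ink4a and p19Arf, had 134 reads in the control and 676 with TNF-α, a log2 ratio of 2.06 (interval 1.81 to 2.35). It was the one inhibitor past 2-fold higher, where 8.56% of all genes were, and counts over the gene cannot tell its products apart. Cdkn1a, which encodes p21, was lowest, with 914 and 776 reads and a log2 ratio of -0.49 (interval -0.64 to -0.36). Of 9 corepressors recruited by pocket proteins, 4 lay above 0 and 5 below, near the 50.6% of all genes above 0. Past 1.5-fold there were 0, where 15.5% of all genes were higher and 13.7% lower. The values ran from -0.30 for the chromatin remodeller gene Smarca2 to 0.36 for the histone methyltransferase gene Suv39h1. Suv39h1 shares 14.6% of its exon bases with Gm14820 on the opposite strand.

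Around E2F6, the 9 genes of its polycomb complex had a median of 0.03. With 5 above 0 and 4 below, they were near the 50.6% of all genes above 0. They ran from -0.66 for Rybp, with 1474 reads in the control and 1116 with TNF-α, to 0.44 for the heterochromatin protein gene Cbx3. Of 8 germline genes that E2F6 is known to silence, 5 had fewer than 10 reads summed over both libraries. Of the others, Stag3 (named after its values were seen) had 82 and 96 reads, the meiotic cohesin gene Smc1b 14 and 38 reads, and Ddx4 22 and 4 reads. The log2 ratio of Smc1b was 1.08 (interval 0.26 to 2.18) and that of Ddx4 -2.21 (interval -4.72 to -1.16), and both rest on few reads.

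Downstream, 36 genes that E2F activates at the G1/S boundary had a median log2 ratio of 0.59. They were listed from general knowledge, with earlier results of these data known. Above 0 lay 36 of them, 19 passed 1.5-fold and 4 passed 2-fold higher, where 50.6%, 15.5% and 8.56% of all genes did. The members past 2-fold were Pole, the catalytic subunit of DNA polymerase epsilon, at 1.05, the nuclease gene Exo1 at 1.05, the methylation reader gene Uhrf1 at 1.02 and the thymidine kinase gene Tk1 at 1.003. Pole had 573 reads in the control and 1427 with TNF-α (interval 0.92 to 1.20). The lowest was Gins2, of the replication helicase, at 0.20, but 67.3% of its exon bases are shared with Gse1 on the opposite strand. E2f1, at 1.26, lay above all 36 of these genes, and E2f7, E2f8 and Rbl1 lay within their range. The other 6 members, E2f2 to E2f6 and Rb1, lay below it. This order ignores counting error: the interval of E2f5 reached 0.38, and that of E2f1, from 1.05, overlapped that of Pole.

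Of 12 genes of the G2/M phase that MuvB controls, 12 lay above 0, 11 passed 1.5-fold and 6 passed 2-fold, with a median of 1.01. This list too was chosen with earlier results of these data known. The members past 2-fold were Cdk1, Cdc20, Ccnb1, Top2a, Aurkb and Plk1, which act in mitosis and chromosome separation, from 1.32 for Cdk1 down to 1.04 for Plk1. The lowest was Ccna2, for cyclin A2, at 0.51, and 12.5% of its exon bases are shared with Exosc9 on the opposite strand. Among all genes compared 50.6% lay above 0, 15.5% passed 1.5-fold higher and 8.56% passed 2-fold higher, and the median was 0.0038.

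**Figure D5:**
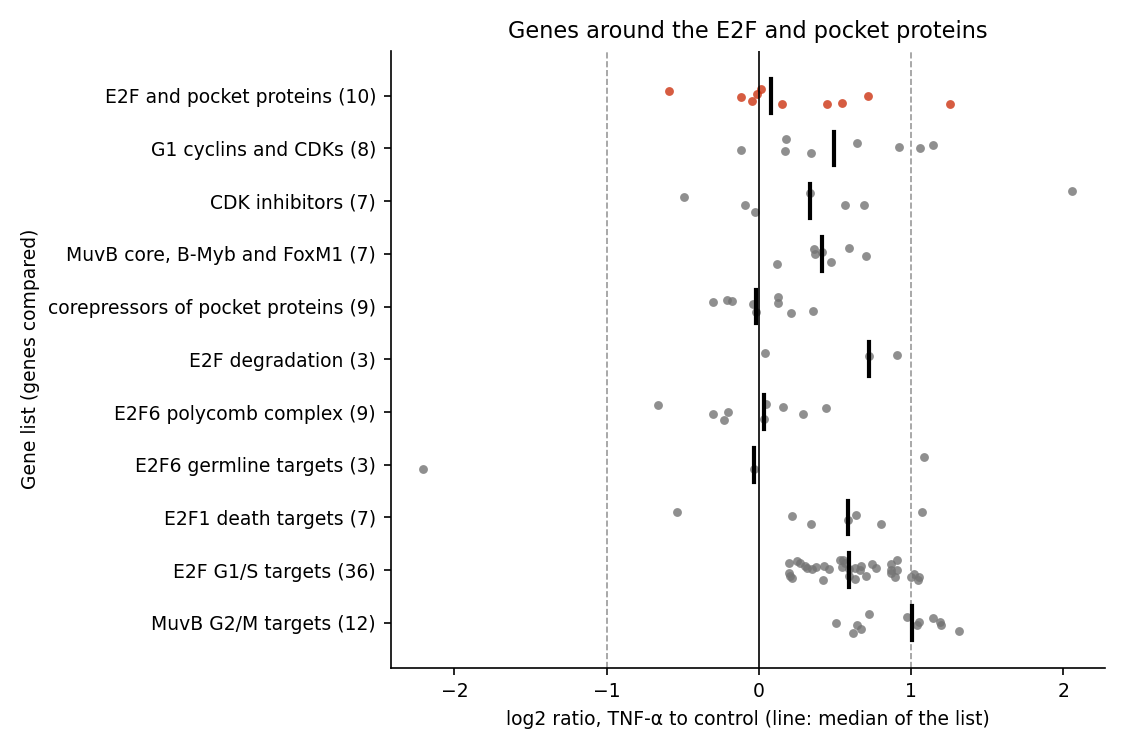
log2 ratio of TNF-α to control for each gene (points) among the members and in 10 lists around them, with the list median as a line, the number of genes compared in brackets and dashed lines at 2-fold. The G1/S targets (median 0.59) and G2/M targets (median 1.01) all lie above 0, while the members themselves (red) spread from -0.59 to 1.26.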

How the data were processed

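RNA-seq was analysed from 1 control and 1 TNF-α library. The authors deposited read counts per gene, not normalized, with exon coordinates and summed exon length. The submitters' processing notes name GRCm38, and 91.0% of 47139 gene names shared with GENCODE M21 had the same position there, 8 of the 10 members included. The aligner, counter, read filters and strand setting are not given in the sources used here.

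Counts were scaled by TMM (edgeR version 4.0.16, R 4.3.3). Genes needed 10 counts or more over both libraries, and 2 was added as prior count before log2 ratios of CPM. A count of 10 is worth 0.224 CPM in the control and 0.187 CPM with TNF-α. Intervals at 95% (Clopper-Pearson, Poisson, conditional odds ratio) came from scipy 1.17.1. With 1 library a group, the quasi-likelihood test of edgeR could not be fitted. Folds of 1.5 and 2 served as thresholds. The calculation was tested on simulated data.

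The members, 12 pathway lists of 109 genes, the cell type markers and the thresholds were chosen with earlier results of these data known. Named were all members, Rbl2, the DP genes, and the highest, the lowest and any gene past 2-fold of each list. Alternatives were scaling by total counts, by upper quartiles or by the size factors of DESeq2 (version 1.42.0), other prior counts and filters, halved counts, and lowess corrections (span 0.3) for exon length and, added after seeing the data, GC content. Promoters are RefSeq's.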

Additional observations from a re-analysis of the deposited data

How the results depend on the processing

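No paired analysis was possible because there was a single library per condition, and none could be left out. The spread between cultures was not measured, so an effect of TNF-α and a difference between single cultures cannot be told apart for any gene. Under the 8 alternatives of scaling, prior count, halved counts and corrections for length and GC content, the log2 ratio of E2f1 lay between 1.25 and 1.36, that of E2f7 between 0.70 and 0.77, E2f8 between 0.53 and 0.59, Rbl1 between 0.40 and 0.49, and Rb1 between -0.64 and -0.54. All 10 members stayed inside their counting intervals. E2f2, E2f3 and E2f4 changed sign under at least 1 alternative, each within 0.06 of 0.

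Rb1 fell short of 1.5-fold with the correction for exon length and with no filter, which left 0 members past 1.5-fold lower, where 1 was counted. The correction for exon length moved E2f8 past 1.5-fold, for 3 members higher in place of 2. The median of the corepressors, -0.02, was 0.058 with the correction for exon length and 0.026 with that for GC content, and the cause was not tested. Among genes with at least 200 reads, the background was 9.13% past 1.5-fold higher, 7.48% past 1.5-fold lower, 4.01% past 2-fold higher and 2.87% past 2-fold lower, since low counts scatter more. As plain reads, the share of E2f1, E2f2 and E2f3 differed by -0.24 percentage points in place of 2.56, and that of E2f7 and E2f8 by 5.83 in place of 3.25, because long genes weigh more without the division by length.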

Other observations

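Genes that E2F1 is known to activate in cell death, and genes that remove E2F proteins, were looked at beside the cell cycle genes. Of 7 death genes 6 were above 0 and 4 passed 1.5-fold higher, where 50.6% and 15.5% of all genes did, with a median log2 ratio of 0.59. The highest was Pmaip1, which encodes the BH3-only protein Noxa, with 315 reads in the control and 797 with TNF-α and a log2 ratio of 1.08 (interval 0.89 to 1.27). The lowest was Bcl2l11, which encodes the BH3-only protein Bim, with 1392 and 1150 reads and a log2 ratio of -0.53 (interval -0.65 to -0.42). Apaf1, the apoptosome gene, was the median at 0.59 and passed 1.5-fold by little (named after its values were seen). The median of these genes was below 1.5-fold, so that at most 3 passed, under 5 alternatives: scaling by total counts, by upper quartiles or by DESeq2 size factors, a prior count of 5 and the correction for GC content, the last giving 0.55.

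Of 3 genes for ubiquitin ligase subunits that mark E2Fs for degradation, 2 passed 1.5-fold higher, where 15.5% of all genes did. Ccnf, which encodes cyclin F, had 248 reads in the control and 558 with TNF-α, a log2 ratio of 0.91 (interval 0.69 to 1.13). Skp2 (named after its values were seen) was at 0.72, and Fzr1, the activator of the anaphase-promoting complex in G1, was lowest at 0.04 (interval -0.08 to 0.16).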
